A study of Mus musculus with 4 samples.

Results

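Endothelial cells made up 154 of the 28790 cells that passed the quality filter in a sort for muscle stem cells (MuSCs). They were chosen by measured RNA. A kept cell had at least 1000 unique molecular identifiers (UMIs, each marking a captured RNA molecule), at least 400 detected genes and under 15% mitochondrial UMIs. A member had a UMI of at least 3 of the 6 endothelial genes *Pecam1*, *Cdh5*, *Egfl7*, *Flt1*, *Gpihbp1* and *Ly6c1*. In addition, the myofiber genes *Ckm*, *Acta1*, *Mylpf*, *Tnnc2* and *Tnnt3* together gave under 1% of its UMIs. The levels of these 11 genes are therefore a description of the choice and not a result.

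Droplet single cell RNA-sequencing (3′ chemistry) was performed on tdTomato+ cells sorted from skeletal muscle of C57BL/6J mice of 3-4 months. All mice carried a Pax7CreERT2 allele, which drives tamoxifen-inducible Cre from the MuSC gene *Pax7*, and a Rosa26-tdTomato reporter, and all received tamoxifen on 5 days and were analyzed 14 days later. The 2 control samples had no floxed α-catenin allele, and the 2 α-cdKO samples were *Ctnna1* fl/fl and *Ctnna3* fl/fl, so that Cre removes αE- and αT-catenin in MuSCs. Each sample pooled 2 littermates of the same genotype, and 30000 cells were loaded. The labels call every cell a MuSC, and neither tdTomato nor Cre is in the gene list, so whether the endothelial cells carried the reporter or were recombined could not be read.

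Endothelial cells line the inner face of blood vessels. In skeletal muscle most belong to capillaries that run along the myofibers, close to MuSCs. They respond to VEGF through the receptors *Flt1* and *Kdr*, are joined to each other by the cadherin *Cdh5* and by claudin-5, and move fatty acids from blood lipoproteins to the muscle with *Gpihbp1*, *Lpl*, *Cd36* and *Fabp4*. ETS-family transcription factors such as *Erg*, *Fli1* and *Ets1*, which bind DNA at a GGAA core, are known regulators of endothelial genes.

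Promoters are shown for 4 of the genes that mark these cells. All 4 were detected in the members and were nearly absent from the other cells. The same held for further genes named below, so the 4 are examples. Each window runs from 250 bases before to 50 bases after the annotated start site (RefSeq, GRCm38.p6), is given on the gene's own strand, and has the letters AGGAAG, or CTTCCT on the other strand, in capitals. The windows are chr5:147725962-147726261 (minus strand) for the VEGF receptor *Flt1*, chr4:118489800-118490099 (minus strand) for the orphan receptor *Tie1*, chr2:26580833-26581132 (plus strand, the first of 3 listed) for the secreted factor *Egfl7*, and chr5:75978406-75978705 (minus strand) for the VEGF receptor *Kdr*.
Flt1: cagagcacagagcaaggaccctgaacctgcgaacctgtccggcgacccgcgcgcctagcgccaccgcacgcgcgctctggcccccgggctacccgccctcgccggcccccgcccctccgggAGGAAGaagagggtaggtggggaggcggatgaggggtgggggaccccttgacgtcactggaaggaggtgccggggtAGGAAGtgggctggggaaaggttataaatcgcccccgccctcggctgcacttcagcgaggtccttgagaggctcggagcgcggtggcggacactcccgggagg
Tie1: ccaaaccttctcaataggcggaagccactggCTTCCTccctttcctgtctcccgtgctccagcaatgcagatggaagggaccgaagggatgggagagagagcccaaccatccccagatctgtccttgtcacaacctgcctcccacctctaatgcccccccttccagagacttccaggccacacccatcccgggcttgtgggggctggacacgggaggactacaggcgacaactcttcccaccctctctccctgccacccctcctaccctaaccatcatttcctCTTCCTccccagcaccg
Egfl7: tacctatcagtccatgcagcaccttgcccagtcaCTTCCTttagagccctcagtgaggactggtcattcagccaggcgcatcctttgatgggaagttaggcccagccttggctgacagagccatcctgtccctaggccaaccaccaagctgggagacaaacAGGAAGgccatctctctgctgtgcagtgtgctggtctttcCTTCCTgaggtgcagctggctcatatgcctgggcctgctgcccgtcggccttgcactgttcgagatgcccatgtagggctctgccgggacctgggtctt
Kdr: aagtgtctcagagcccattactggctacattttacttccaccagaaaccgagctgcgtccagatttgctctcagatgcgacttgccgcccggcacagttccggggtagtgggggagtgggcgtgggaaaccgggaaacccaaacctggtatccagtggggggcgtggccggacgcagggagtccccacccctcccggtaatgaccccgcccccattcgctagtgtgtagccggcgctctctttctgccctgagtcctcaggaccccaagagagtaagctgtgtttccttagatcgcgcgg
The *Flt1* window held 2 matches, the *Tie1* window 2, the *Egfl7* window 3 and the *Kdr* window 0. The windows of *Emcn* and *Aqp1*, which are not printed, held 2 and 1. Of 31 genes, namely the 6 chosen for the rule and the 25 named below, 21 had a window in the RefSeq table, and 15 of their 27 windows (55.6%) held the motif. Over all 32851 windows of the table the share was 35.4%. A match is a run of letters and not a measured binding site.

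The members were unequally spread over the samples. Control replicates 1 and 2 held 42 and 20 endothelial cells, and α-cdKO replicates 1 and 2 held 47 and 45. No member shared a barcode with a kept cell of another sample, whereas 101 barcodes were shared among all kept cells. Their median depth was 7492 UMIs (range 1125 to 71167) against 7310 in the other kept cells, and their median gene number was 2196.5 against 1695. The summed UMIs of the members were 459879 and 139467 for the control and 327150 and 423848 for the α-cdKO samples, so control replicate 2 was the shallowest. Below, CPM are the UMIs of a gene as a share of all UMIs summed over the cells of a sample, scaled to a common total, and SD is over the 4 samples unless stated. A UMI counts the end of a transcript, so levels were not divided by gene length.

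All 6 rule genes were carried by most members. *Ly6c1*, a surface protein of capillary cells (chromosome 15, 75044018 to 75048830), was in 149 cells, and its level was 1209 and 1197 CPM for the control and 1214 and 1246 CPM for the α-cdKO samples. *Flt1* (chromosome 5, 147561604 to 147726011) was at 1059, 810, 831 and 602 CPM in the same order of samples. *Gpihbp1*, the capillary anchor of lipoprotein lipase (chromosome 15, 75596628 to 75599481), was at 637, 739, 715 and 731 CPM. For *Cdh5*, or VE-cadherin (chromosome 8, 104101625 to 104144511), the values were 637, 889, 633 and 583 CPM. *Egfl7* (chromosome 2, 26580014 to 26593120) was at 574, 731, 486 and 536 CPM, and the adhesion molecule *Pecam1* (chromosome 11, 106654217 to 106750628) at 389, 574, 434 and 262 CPM. The samples thus had similar levels of *Ly6c1* and *Gpihbp1*, and control replicate 2 was highest for *Cdh5*, *Egfl7* and *Pecam1*. In the other kept cells 5 of the 6 genes were below 1 CPM on average. *Pecam1* was the exception at 4.84 CPM, with a UMI in 902 cells (3.15%).

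Most members lay far from the edge of the rule. A total of 104 carried all 6 genes, 29 carried 5, 11 carried 4 and 10 carried 3. Just outside, 14 cells carried 2 of the genes, and 2 cells with all 6 genes were left out because myofiber RNA made up 1.73% and 2.13% of their UMIs, where the highest member had 0.480%. The label was checked on 17 further endothelial genes. At least 3 of them were detected in 147 of the 154 members, including 104 of the 104 with all 6 rule genes but only 4 of the 10 with 3 rule genes. Markers of other cell types differed in how far they were detected. The leukocyte gene *Ptprc*, the macrophage gene *Csf1r*, the Schwann cell gene *Sox10*, the tendon gene *Tnmd* and the fibroadipogenic gene *Pdgfra* had no UMI in any member. A count of 0 in 154 cells allows up to 1.95% of cells with a UMI, for counting error only, and does not limit the share of cells that express a gene. No member had 3 or more of the 13 immune, 8 glial or 5 tenocyte genes, and 2 had 3 or more of 7 platelet and red cell genes. By contrast, 30 members (19.5%) had 3 or more of 11 fibroadipogenic genes, against 34.3% of the other kept cells, and 40 had 3 or more of 12 mural genes. The summed level of the fibroadipogenic list was 237 to 925 CPM in the 4 samples of members and 1121 to 1504 CPM in those of the other kept cells. Of the fibroadipogenic list, *Col3a1* was at 279 ± 186 CPM against 609 CPM and *Gsn* at 184 ± 62.9 CPM against 407 CPM in the other kept cells, while *Pdgfra*, *Pi16*, *Smoc2* and *Clec3b* had no UMI in the members. All 30 cells were among those with MuSC RNA described below.

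**Figure D1:**
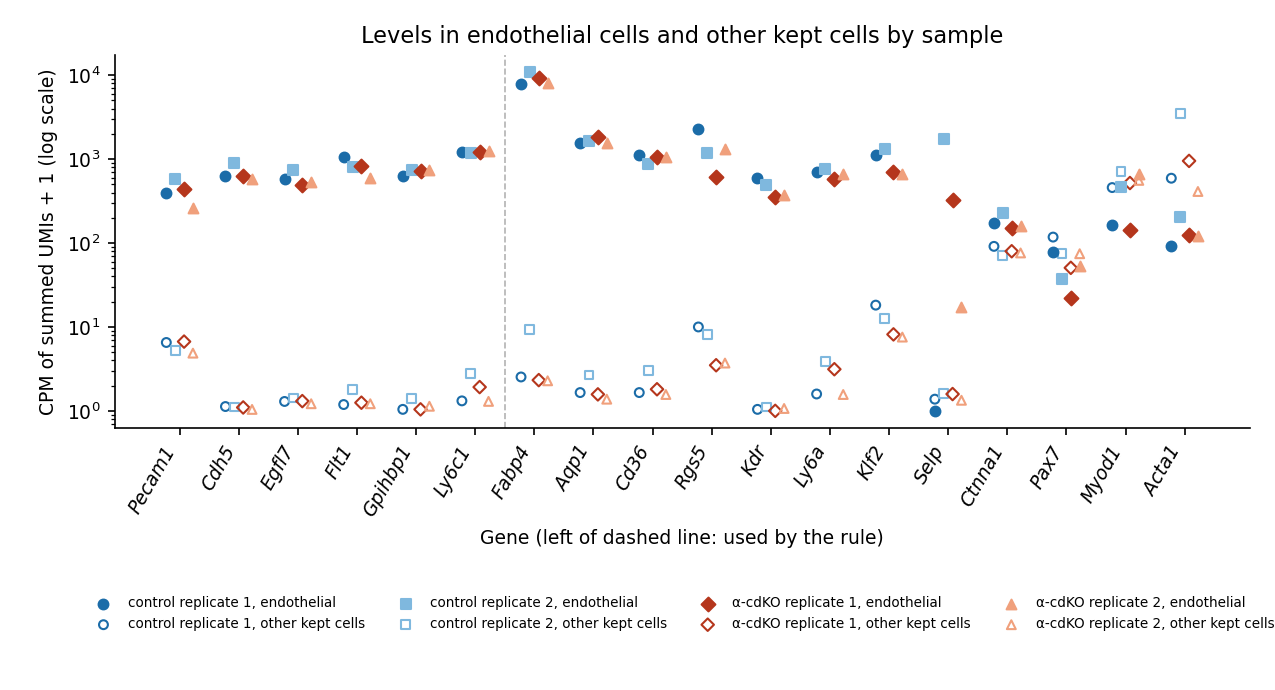
Levels of 18 genes (CPM + 1, log scale) in the endothelial cells (filled symbols) and the other kept cells (open symbols) of each sample, with control samples in blue and α-cdKO samples in red. The 6 genes left of the dashed line were used by the rule. *Fabp4* lay between 7865 and 10884 CPM in the endothelial cells of the 4 samples, and the MuSC genes *Pax7* and *Myod1* were present in them in every sample.

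The members resembled capillary cells. The gene with the largest difference from the other kept cells was *Fabp4*, a fatty acid-binding protein (chromosome 3, 10204088 to 10208576). It was detected in all 154 members, at 7865 and 10884 CPM for the control and 9274 and 8100 CPM for the α-cdKO samples, and was at 3.12 CPM in the other kept cells. The water channel *Aqp1* (chromosome 6, 55336432 to 55348555) followed with 1574, 1642, 1828 and 1567 CPM, and the fatty acid receptor *Cd36* (chromosome 5, 17781690 to 17888801) with 1124, 868, 1055 and 1059 CPM. For these 3 genes the CPM of the genotypes overlapped, although those of *Aqp1* did not after TMM scaling (1673 and 1722 against 1955 and 1747 CPM). All 10 capillary genes listed were at least 2-fold higher than in the other kept cells in each of the 4 samples, with a median log2 ratio of 5.49 (5 CPM added to each level). Among all 5620 genes of at least 20 CPM this held for 717, or 12.8%, and the median log2 ratio was 0.25. Since the cells were chosen on the same contrast, these ratios describe the members and were not tested. At least 3 capillary genes were found in 149 members, among them the carbonic anhydrase *Car4* in 81 cells, *Cd300lg* in 114 and the metalloproteinase inhibitor *Timp4* in 114.

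The 25 genes with the highest ratios outside the rule were mainly known endothelial genes. They included the VEGF receptor *Kdr* (456 ± 113 CPM, SD), the receptor phosphatase *Ptprb* (448 ± 171 CPM), the tight-junction protein *Cldn5* (477 ± 254 CPM), the adhesion proteins *Esam* (282 ± 46.3 CPM) and *Emcn* (249 ± 63.1 CPM), and the adhesion G protein-coupled receptor *Adgrf5* (515 ± 115 CPM). Each of these was below 0.3 CPM in the other kept cells. The remaining ones were *Rgs5*, *Ly6a*, *Tspan13*, *Tm4sf1*, *Ctla2a*, *Timp4*, *AW112010*, *Cd93*, *Slfn5*, *Cxcl12*, *Klf2*, *Slc9a3r2*, *Sparcl1*, *Iigp1*, *Cyyr1* and *C1qtnf9*, beside *Fabp4*, *Aqp1* and *Cd36*. The flow-induced transcription factor *Klf2* was at 1107 and 1334 CPM for the control and 706 and 656 CPM for the α-cdKO samples, against 10.6 CPM in the other kept cells. *Cxcl12*, the chemokine that binds *Cxcr4*, was highest in control replicate 1, with 1435, 674, 581 and 727 CPM in the 4 samples.

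Of 17 further endothelial genes, 16 were at least 2-fold higher in every sample, with a median log2 ratio of 4.76. The exception was *Plvap*, the diaphragm protein of fenestrated and venous endothelium, which had UMIs in 13 cells and none in control replicate 1. Among 16 endothelial transcription factors, 15 were higher in this way, including the ETS factors *Fli1* (221 ± 25.4 CPM), *Ets1* (215 ± 61.7 CPM), *Elk3* (132 ± 19.5 CPM) and *Erg* (49.0 ± 16.1 CPM), the SOXF factors *Sox17* (238 ± 112 CPM), *Sox18* (197 ± 141 CPM) and *Sox7* (95.3 ± 34.8 CPM), and *Tcf15* (229 ± 79.7 CPM) and *Meox2* (111 ± 26.7 CPM), which are known to act together in fatty acid uptake. *Lmo2*, a hematopoietic and endothelial cofactor, was the exception with 51.2 CPM against 33.4 CPM.

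Receptors of the vessel growth factors were higher than in the other kept cells, whereas the ligands *Vegfa* and *Angpt1* were not. The list of VEGF, TIE and apelin genes had 9 members of at least 20 CPM, of which 7 were at least 2-fold higher in every sample. These were the receptors *Kdr*, *Tek*, *Tie1* and *Aplnr*, the VEGF co-receptors *Nrp1* (327 ± 66.6 CPM) and *Nrp2* (80.2 ± 18.1 CPM), and *Ptprb*. The ligand *Vegfc* had 3 and 9 UMIs for the control and 11 and 12 for the α-cdKO samples. *Vegfa* was at 38.7 ± 23.4 CPM against 53.9 CPM in the other kept cells, and the *Tek* ligand *Angpt1* had no UMI in any member and 3.46 CPM in the other kept cells. A count of 0 in the members' 1350344 UMIs allows up to 2.22 CPM. In the Notch list 3 of 10 genes were higher in every sample, namely the ligand *Dll4* (53.7 ± 28.3 CPM) and the targets *Nrarp* (51.4 ± 10.9 CPM) and *Hes1* (529 ± 57.3 CPM), whereas *Rbpj*, the DNA-binding partner of Notch, was at 99.4 ± 24.0 CPM against 134 CPM. Of 10 BMP and TGF-β genes, 4 were higher in every sample, which were the co-receptor *Eng*, the receptor *Acvrl1*, the ligand *Bmp6* and the target *Id1* (613 ± 157 against 90.01 CPM).

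Lipid handling was broadly represented, with 7 of 8 listed genes at least 2-fold higher in every sample. Besides *Fabp4*, *Cd36*, *Tcf15* and *Meox2* these were *Fabp5* (454 ± 71.7 CPM), the glycerol channel *Aqp7* (138 ± 7.82 CPM) and *Lpl*, the lipase that *Gpihbp1* carries to the lumen (376 ± 63.8 against 59.9 CPM). *Angptl4*, an inhibitor of *Lpl*, was at 45.7 ± 25.9 CPM against 50.7 CPM. Genes of vascular tone and caveolae were higher in 8 of 12 cases, with *Cav1* at 1265 ± 80.0 CPM, *Cavin2* at 969 ± 249 CPM, the nitric oxide synthase *Nos3* at 61.1 ± 41.9 CPM and the endothelin receptor *Ednrb* at 72.7 ± 23.0 CPM. In the list of class I presentation and interferon genes 12 of 13 were higher, for instance *B2m* (1329 ± 371 against 158 CPM), *H2-K1* (867 ± 240 against 305 CPM), *Ly6e* (583 ± 29.9 against 20.6 CPM) and *Bst2* (299 ± 49.98 against 15.7 CPM). Of 10 basement membrane genes 4 were higher in every sample, including the type IV collagen chain *Col4a2* (264 ± 35.04 against 57.9 CPM) and the vessel laminin *Lama4* (44.5 ± 20.5 against 0.775 CPM).

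At the junctions, 6 of 10 listed genes were at least 2-fold higher in every sample: the claudin *Cldn5*, the immunoglobulin-type adhesion proteins *Esam*, *Jam2* and *F11r*, the scaffold *Tjp1* and the protocadherin *Pcdh12*. M-cadherin (*Cdh15*), the cadherin of MuSCs, was at 30.0 ± 11.7 CPM in the members and 56.9 CPM in the other kept cells. All 43 *Cdh15* UMIs of the members were in cells with MuSC RNA, described below, and *Cdh15* is on the list that defined those cells. The catenins link cadherins to actin, and β-catenin (*Ctnnb1*, 293 ± 35.4 against 120 CPM) and γ-catenin (*Jup*, 221 ± 69.0 against 47.6 CPM) were both higher in every sample. The targeted gene *Ctnna1* (αE-catenin, chromosome 18, 35118859 to 35254779) was detected in 94 members, at 172 and 229 CPM for the control and 150 and 158 CPM for the α-cdKO samples. In the other kept cells of the same samples it was at 90.3, 70.2, 78.9 and 75.2 CPM, so the endothelial level was the higher one in all 4 samples. The second targeted gene *Ctnna3* (αT-catenin, chromosome 10, 63430098 to 65003667) and the neural gene *Ctnna2* had no UMI in the members. Which exons the floxed alleles remove relative to the counted 3′ end, and whether Cre was active in these cells, were not tested.

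Vessel subtypes were mixed within cells at this depth. At least 2 of 12 arterial genes were found in 77 members and at least 2 of 10 venous genes in 61, with 40 cells holding both and 56 neither. By sample, 59.5% and 30.0% of control and 51.1% and 48.9% of α-cdKO members had 2 arterial genes, and 45.2% and 40.0% of control and 36.2% and 37.8% of α-cdKO members had 2 venous genes. In most of these cells the capillary genes were present as well, as at least 2 of 10 were found in 151 members. Of the arterial genes, *Stmn2* was in 42 cells, the Notch ligand *Dll4* in 38 and the ephrin *Efnb2* in 65, while *Gja5*, the connexin of larger arteries, was in 2. The lymphatic genes *Reln* and *Mmrn1* had no UMI and *Lyve1* was in 1 cell. *Prox1* and *Pdpn*, which are also on that list, were at 86.9 and 343 CPM in the other kept cells and at 65.2 and 180 CPM in the members. At least 2 lymphatic genes were found in 34 members, all of them among the cells with MuSC RNA described below.

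Some venous and inflammatory genes came from very few cells. *Icam1*, which is on both lists, was more widespread, with UMIs in 60 members and 33.7% of them in 5 cells. P-selectin (*Selp*, chromosome 1, 164115264 to 164150026) gave 357 UMIs, all in 5 cells with 220, 102, 23, 7 and 5 UMIs. They came from control replicate 2, α-cdKO replicate 1, control replicate 2, α-cdKO replicate 2 and α-cdKO replicate 1, and control replicate 1 had none. The cell with 220 *Selp* UMIs also had 95 UMIs of the cytokine *Csf3*, 36 of *Icam1* and 21 of E-selectin (*Sele*). The second had 111 UMIs of *Procr*, the protein C receptor, and 15 each of *Vwf* and *Lrg1*. These cells had 3 and 4 rule genes, and 1 and 0 UMIs of *Cd36*. *Procr* as a whole had 132 UMIs, so 84.1% of them were in this cell. Similarly, 78 of 181 UMIs of endothelin 1 (*Edn1*) and 154 of 206 UMIs of the natriuretic peptide Nppc each came from 1 cell of control replicate 1. A sample mean of these genes therefore follows single cells.

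Mural cells (pericytes and smooth muscle) wrap the capillary wall, and their genes were present in a minority of members. The pericyte gene *Rgs5* (chromosome 1, 169655501 to 169695813) was at 2261 and 1197 CPM for the control and 608 and 1321 CPM for the α-cdKO samples, but it was detected in only 65 members and 5 of them gave 44.0% of its 1966 UMIs. At least 3 of 9 mural genes were found in 23 members (9, 2, 3 and 9 in the 4 samples) and in 39 other kept cells (9, 14, 12 and 4). The 9 genes were those of 12 that are low in the other kept cells, a selection made after their values were seen. These 23 members held 88.4% of the *Rgs5* UMIs and 98.1% of those of smooth muscle myosin *Myh11*. They were endothelial by the rule as firmly as the others, since 15 had all 6 rule genes and the median number of capillary genes was 8. The top set of Scrublet doublet scores (the highest 0.8% per 1000 kept cells of a sample) held 1 of these 23 and 12 of the 131 other members. Whether the 23 are pairs of cells was not tested. Of the 39 cells outside the rule, 32 had none of the 6 endothelial genes.

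MuSC RNA was carried over into a large minority of the members. At least 3 of 15 myogenic genes were detected in 71 of the 154 cells (46.1%, exact 95% interval 38.1% to 54.3%), 1 or 2 in 18 cells and none in 65. By sample the cells with 3 or more numbered 18 of 42 and 6 of 20 in the controls, and 20 of 47 and 27 of 45 in the α-cdKO samples. Without thinning the share was lowest in control replicate 2, whose members were the shallowest (median 5645 UMIs). In the other kept cells 91.2% had 3 or more, at a median of 7310 UMIs. Of the kept cells with at least 3 immune genes 9 of 38 (23.7%) had 3 or more, at a median of 9234.5 UMIs, and of those with at least 3 glial genes 12 of 47 (25.5%), at 3473 UMIs. The members had a median of 7492 UMIs. With each cell thinned to 2000 UMIs, which left out 8 members, the shares were 31 of 146 members (21.2%; 7.14% and 27.8% of control and 13.3% and 41.5% of α-cdKO members), 0 of 37 immune cells, 6 of 39 glial cells (15.4%) and 61.9% of the other kept cells. A UMI of the MuSC regulators *Pax7*, *Myf5* or *Myod1* was then found in 36 of 146 members (24.7%), and by sample in 11.9% and 27.8% of control and 22.2% and 39.0% of α-cdKO members. Per sample these shares averaged 25.2%, and 40.6% without thinning.

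**Figure D2:**
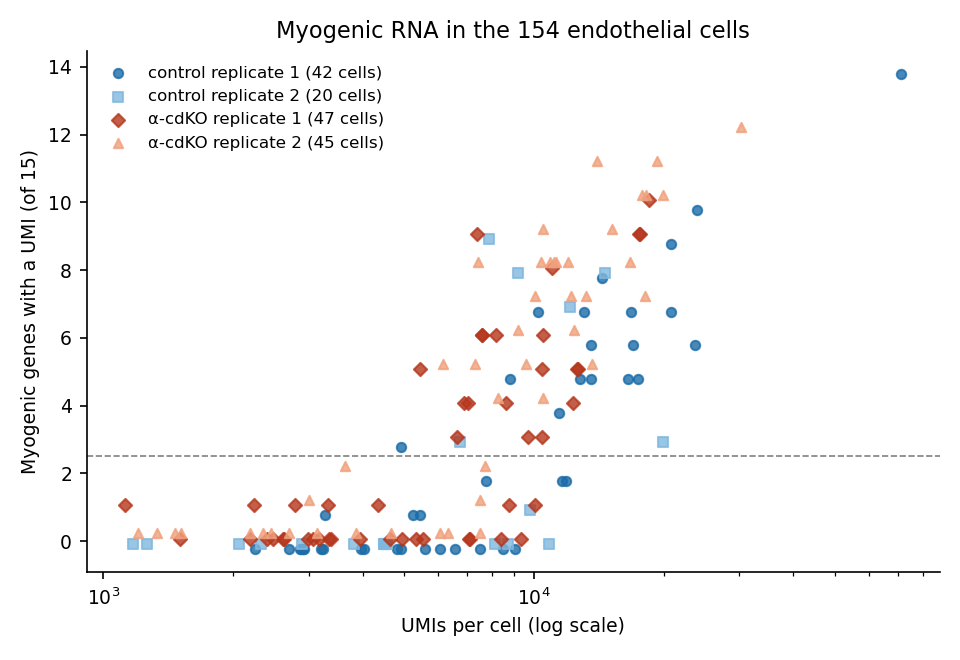
Each point is a cell among the 154 endothelial cells, placed by its UMIs (log scale) and by how many of 15 myogenic genes had a UMI; points are shifted slightly up or down by sample to lessen overlap. The dashed line separates the 71 cells with 3 or more myogenic genes, whose UMIs run from 4920 to 71167, from the 83 cells with fewer, which reach 11892.

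Members with and without MuSC RNA differed in more than these genes. The 71 cells with at least 3 myogenic genes had a median of 12118 UMIs, and the 83 others 3859. A deeper cell passes a count of detected genes more easily, so a difference in depth is in part built into this split. With each cell thinned to 2000 UMIs, 31 of 146 members passed it. The number of UMIs from endothelial genes per cell was close in both, with medians of 68 and 60, so endothelial RNA made up 0.485% of the first and 1.65% of the second. The median mitochondrial share was 5.67% against 2.81%, and 12 against 1 cells were in the top set of doublet scores. All 6 rule genes were found in 47 and 57 of them. The myogenic genes decided this split, so their levels in the first group describe the choice. There they stood at 0.434 to 1.00 of their level in the other kept cells (14 genes, median 0.817), for instance *Pax7* at 72.5 against 78.7 CPM, *Myf5* at 252 against 259 CPM and *Myod1* at 487 against 559 CPM. In the same cells, the 23 rule and further endothelial genes stood at 0.0561 to 0.522 (median 0.305) of their level in the members without MuSC RNA. The 83 members called without MuSC RNA had under 3 myogenic genes, and 18 of them had 1 or 2. *Pax7* and *Myod1*, which are on the list that split the cells, had no UMI there. Other genes of the list did, for instance *Des* with 11 UMIs, *Msc* with 8 and *Asb5* with 4. The summed level of the list in these members was 14.5 to 175 CPM by sample. Myogenin (*Myog*), the differentiation factor, had no UMI in any member and was at 78.6 CPM in the other kept cells.

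Sex-linked transcripts gave a further count on mixed cells. *Xist*, which is expressed from the inactive X, was found in 22 of the 47 members of α-cdKO replicate 1 (46.8%) and in no member of the other samples. In the other kept cells of that sample the share was 55.4%, so this pool held cells of both sexes, unlike the other 3. In that sample 3 members (6.38%) had both *Xist* and a Y-linked UMI, against 4.08% of the other kept cells, and all 3 were among the cells with MuSC RNA. How MuSC RNA came to be in these cells was not tested.

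Genes lower in the members than in the other kept cells were few. At least 2-fold lower levels in every sample were seen for 29 of 5620 genes (0.516%). Beyond the 5 rule genes of muscle they included the myofiber gene *Myl1* (34.3 ± 31.1 against 676 CPM) and the phosphatase inhibitor *Ppp1r14b* (187 ± 53.4 against 554 CPM). Lower in all 4 samples, but not by 2-fold in each with the pseudocount of 5 CPM, were the myofiber gene *Tnni2* (47.2 ± 29.5 against 626 CPM), the matricellular factor *Ccn2* (103 ± 58.1 against 370 CPM) and *Des*, the intermediate filament of muscle (218 ± 79.8 against 472 CPM). Of the chaperone genes, which respond to cell isolation, 0 of 10 were past 2-fold in every sample in either direction. Their median log2 ratio was -0.13, but single genes differed more. *Hspa1a* was at 9231 ± 3502 CPM in the members and 4290.1 CPM in the other kept cells. At least 3 of 11 cell cycle genes were found in 3 members, and *Mki67* was in 2.

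The first comparison of genotypes asked whether the share of endothelial cells differed. It was 0.766% and 0.374% of kept cells in the controls (exact 95% intervals 0.553% to 1.03% and 0.228% to 0.576%) and 0.480% and 0.551% in the α-cdKO samples (0.353% to 0.638% and 0.402% to 0.737%). The α-cdKO values lay between those of the controls. The means were 0.570% ± 0.277 (SD, n = 2) and 0.516% ± 0.0501 (SD, n = 2), and a two-sided exact permutation test gave p = 1, where 2 samples against 2 cannot go below 0.33. The log2 ratio was -0.14 and became 0.47 without control replicate 1. In a share, fewer endothelial cells and more sorted MuSCs cannot be told apart.

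No gene passed the test between genotypes within the endothelial cells. The edgeR quasi-likelihood test on UMIs summed per sample gave 0 of 4709 genes with a Benjamini-Hochberg adjusted p under 0.05 (0%), while 247 genes had an unadjusted p under 0.05 and DESeq2 called 4 genes. Where samples were left out in turn, the count was 112 without control replicate 1, 0 without control replicate 2, 17 without α-cdKO replicate 1 and 28 without α-cdKO replicate 2, with the lone sample assumed to vary like the other genotype. With 2 pools per genotype the p-values measure the spread between these pools, and the sexes were mixed in 1 α-cdKO pool only.

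The gene closest to the threshold was *Gm8797*, a predicted gene on chromosome 3 (5750806 to 5751295). It had 11 and 5 UMIs for the control and 143 and 105 for the α-cdKO samples, or 25.4, 37.6, 468 and 276 CPM after TMM scaling, so that both α-cdKO samples were above both controls. The log2 fold change was 3.65 (SE 0.42, edgeR adjusted p = 0.0575), and it was called in 11 of 15 alternative analyses, with adjusted p from 4.48e-14 to 0.157. The same direction was seen in the other kept cells (12.9 and 14.8 against 214 and 273 CPM) and in the members without MuSC RNA (7.75 and 57.9 against 683 and 496 CPM). *Tpm3-rs7*, a tropomyosin-related sequence on chromosome 14 (113314608 to 113316754), had 0, 1, 80 and 29 UMIs (edgeR adjusted p = 0.45), and the splicing kinase *Srpk2* (chromosome 5, 23503264 to 23684617) was at 37.0, 30.1, 121 and 158 CPM (log2 fold change 2.00, SE 0.39, edgeR adjusted p = 0.45). The 3 genes were listed because they had differed by genotype in earlier work on the same samples, so their direction here is not independent evidence. The fourth tested gene of that list, *Samd4*, was at 109, 37.6, 65.4 and 97.3 CPM after TMM scaling, so the genotypes overlapped. Its log2 fold change was -0.00 (edgeR adjusted p = 0.9998). No SE is given for it, because the SE was derived from the fold change and is unreliable this near to 0. *Gm8797* and *Tpm3-rs7* can share reads with near-identical copies and are uncertain.

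*Ctnna1* was lower in both α-cdKO samples, at 183 and 241 CPM after TMM scaling for the control and 160 and 176 CPM for the α-cdKO samples. Both α-cdKO samples were likewise below both controls for 780 of all 4709 genes (16.6%). Before TMM scaling, the genotypes overlapped in members without MuSC RNA (209 and 304 against 202 and 233 CPM). In members with MuSC RNA they did not (157 and 156 against 120 and 144 CPM). Over all members the log2 fold change of *Ctnna1* was -0.30 (SE 0.29, edgeR adjusted p = 0.957). It ranged from -0.52 to -0.10 over 15 alternatives and did not pass in any. For the other catenins the log2 fold changes were -0.65 for *Jup*, -0.41 for *Ctnnd1*, -0.33 for vinculin (*Vcl*) and 0.09 for *Ctnnb1*, none of which passed.

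**Figure D3:**
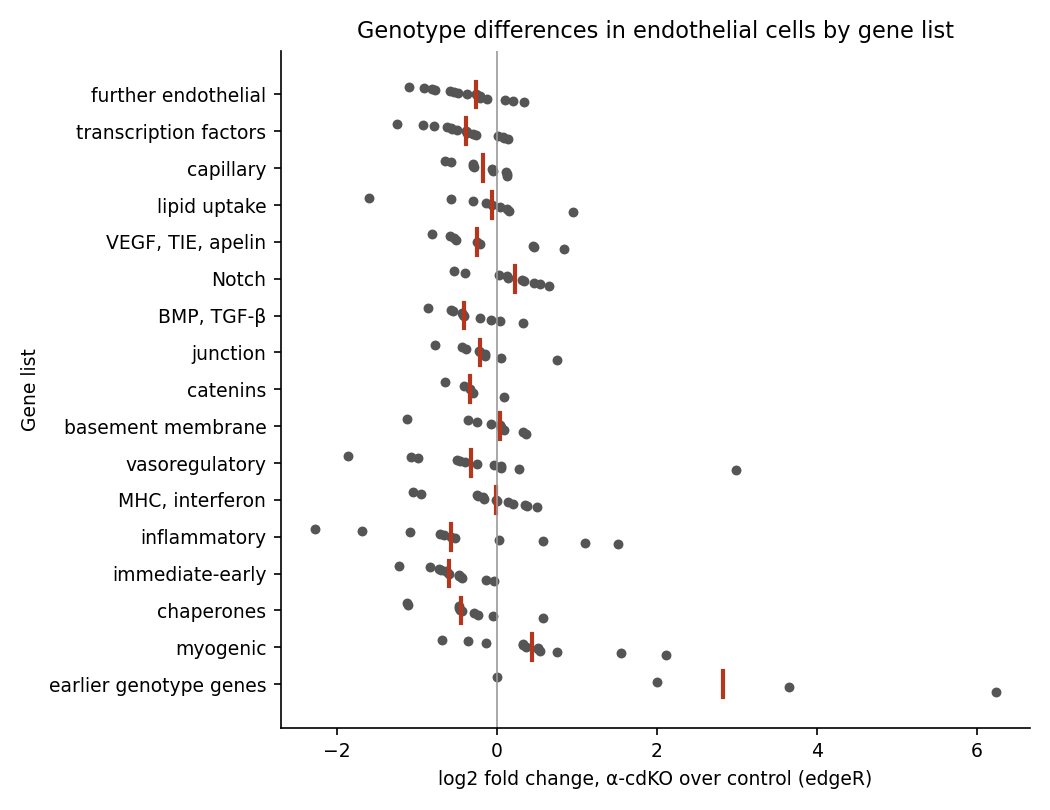
Log2 fold change between genotypes (α-cdKO over control, edgeR, summed UMIs of the endothelial cells) for the tested genes of 17 lists; each point is a gene and the red bar is the median of the list. The median was -0.59 for the 13 immediate-early genes, -0.38 for 16 transcription factors and -0.00 for all 4709 genes, and no gene passed the adjusted threshold.

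The gene lists lay mostly near or below 0 in this comparison. Over all 4709 genes the median log2 fold change was -0.00, and 780 genes (16.6%) were wholly lower and 873 (18.5%) wholly higher in the α-cdKO samples, meaning that both α-cdKO samples lay beyond both controls. The immediate-early genes, which are induced within minutes by stimuli and by tissue dissociation, had 9 of 13 wholly lower and 0 wholly higher, with a median of -0.59. Of the 13, 5 were lower at an unadjusted p under 0.05 (edgeR), where 138 of all 4709 genes were. *Junb* was at 3015 and 4069 CPM after TMM scaling for the control and 2043 and 2296 CPM for the α-cdKO samples (log2 fold change -0.70, SE 0.23, edgeR adjusted p = 0.893). *Atf3*, a stress-response factor, was at 635 and 1730 against 533 and 463 CPM (log2 fold change -1.22, SE 0.42, edgeR adjusted p = 0.893). *Fos* was at 1213 and 2046 against 703 and 1110 CPM (log2 fold change -0.83, SE 0.32, edgeR adjusted p = 0.894). In each of these genes control replicate 2 was the highest sample.

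The immediate-early genes were also described separately in members with and without MuSC RNA. Summed over the 13 immediate-early genes, the members had 16019 and 21066 CPM for the control and 11450 and 12212 CPM for the α-cdKO samples. Among the members without MuSC RNA the sums were 14870 and 23291 against 14336 and 16570 CPM, and 0 of 13 genes were wholly lower, against 771 of all 4709 genes (16.4%). Over all members the count was 10 of 13 on the same CPM before TMM scaling, against 866 of 4709 (18.4%). Among those with MuSC RNA they were 16467 and 18885 against 9810 and 11371 CPM, and 8 were wholly lower and 1 wholly higher, against 734 (15.6%) and 872 (18.5%) of 4709. In the other kept cells they were 9853 and 9584 against 5780 and 9163 CPM, so both α-cdKO sums were the lower ones there too. Of the 13 genes, 5 were wholly lower in those cells, where the share over all genes was not counted. The median log2 fold change was -0.22 without the cells with 3 or more myogenic genes and -0.18 without cells with a *Pax7*, *Myf5* or *Myod1* UMI. The part of MuSC RNA in the difference was not tested beyond these values.

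**Figure D4:**
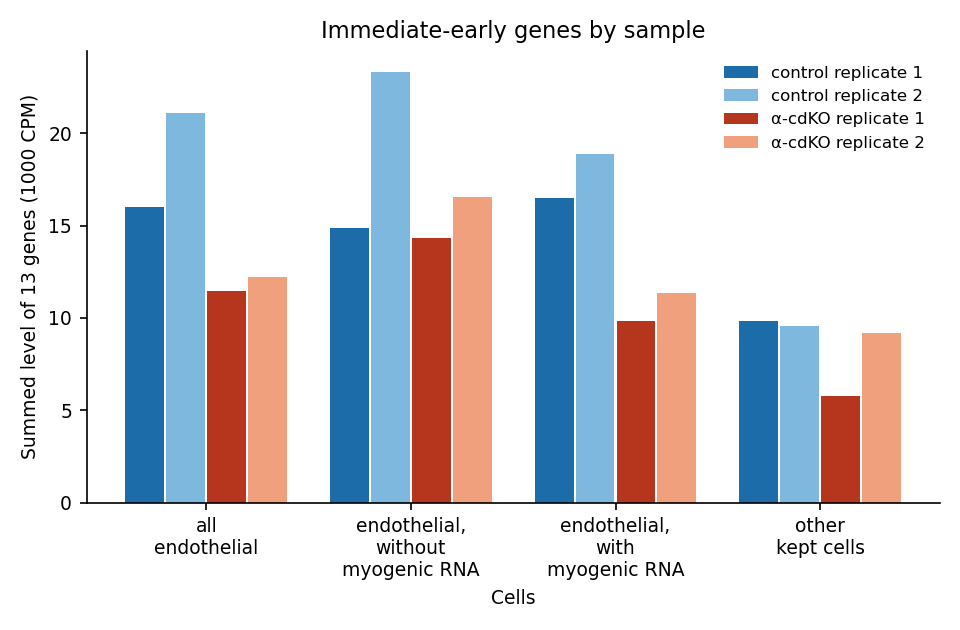
Summed level of 13 immediate-early genes (1000 CPM) in the 4 samples, for all endothelial cells, for those without and with MuSC RNA (under 3 or at least 3 myogenic genes) and for the other kept cells. The α-cdKO bars are below both control bars in all endothelial cells, in those with MuSC RNA and in the other kept cells. In the endothelial cells without MuSC RNA the genotypes overlap, with 16570 CPM in an α-cdKO sample and 14870 CPM in a control.

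Among the endothelial transcription factors 7 of 16 were wholly lower in the α-cdKO samples and 0 wholly higher, with a median log2 fold change of -0.38. For this and the following lists, the shares over all 4709 genes were 16.6% wholly lower and 18.5% wholly higher. *Klf2* was at 1176 and 1399 against 755 and 731 CPM after TMM scaling (log2 fold change -0.79, SE 0.23, edgeR adjusted p = 0.886), and *Sox18* at 180 and 421 against 88.3 and 150 CPM (log2 fold change -1.24, SE 0.44, edgeR adjusted p = 0.893). The summed level of the 16 factors was 7497 and 7242 CPM in the control and 5203 and 5339 CPM in the α-cdKO members without MuSC RNA, and 2922 and 2329 against 2158 and 2330 CPM in those with it. Of the 17 further endothelial genes 6 were wholly lower and 1 wholly higher (median -0.26), led by the sialomucin *Podxl* (log2 fold change -1.09, SE 0.31, edgeR adjusted p = 0.886). Their summed level was 6807 and 7807 against 5844 and 6447 CPM in members without MuSC RNA. In those with it the sums were 2327 and 2371 against 1664 and 2105 CPM. Without the latter cells 9 of 16 tested genes had a log2 fold change below 0 (median -0.23). The capillary list had 4 of 10 wholly lower and 1 wholly higher (median -0.17), and the lipid list 2 of 9 wholly lower (median -0.06), with *Fabp4* at -0.06 and *Cd36* at 0.13. The summed capillary level overlapped between genotypes in members without MuSC RNA (24143 and 20887 against 23090 and 26941 CPM). It also overlapped in those with it (8090 and 9868 against 8549 and 9595 CPM). Chaperones were wholly lower in 4 of 10 cases (median -0.45), among them *Dnajb1* (log2 fold change -1.13, SE 0.28, edgeR adjusted p = 0.617). The vascular adhesion gene *Vcam1*, which MuSCs also express, was at 180 and 278 against 520 and 752 CPM (log2 fold change 1.52, SE 0.33, edgeR adjusted p = 0.554). The myogenic list had 3 of 12 wholly higher (median 0.44), against 18.5% of all genes.

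Whether the genotype difference in the endothelial cells differed from that in the other kept cells was tested as an interaction in a fit with the sample as a term. The edgeR test called 0 of 4709 genes (0%), with 243 at an unadjusted p under 0.05. For *Ctnna1* the difference between the log2 fold changes was -0.18 (SE 0.34, edgeR adjusted p = 0.985), and for *Gm8797* it was -0.48 (SE 0.56, edgeR adjusted p = 0.97). Among the immediate-early genes it ran from -0.45 for *Atf3* to 0.61 for *Fosb*, and none passed.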

How the data were processed

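The data were droplet single cell profiles of the tdTomato+ sort, with 2 samples for each genotype. The authors deposited UMI counts per gene and barcode, as whole numbers without normalization, made with Cell Ranger 7.1.0 on GRCm38 with 32285 genes; the labels also name Seurat 4.0.3. The reads were not analyzed, so intronic or multi-mapped reads could not be treated differently. Samples held 46099310 to 74921651 UMIs in 5853 to 10649 barcodes. The cells and gene lists were chosen with earlier results of these data known.

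The cell filter of the study was used. UMIs were summed per sample over the endothelial cells and over the other kept cells. Genotypes were compared by the quasi-likelihood test of edgeR 4.0.16, after filterByExpr and TMM scaling, with Benjamini-Hochberg adjustment over all genes tested. The alternative was DESeq2 1.42.0, and both ran in R 4.3.3. The interaction fit used 8 sums with the sample as a term. Both fits were tested on simulated data. For shares, an exact two-sided permutation test over the 6 assignments of samples was used (scipy 1.17.1), and intervals are Clopper-Pearson at 95%. Intervals and limits cover counting error only. Cells of a sample were not treated as replicates. Thinning used 2000 UMIs per cell, and 4000 as an alternative. Scrublet in scanpy 1.11.5 marked 0 to 5 cells per sample at its automatic threshold, so no caller was relied on, and the cells with the highest scores (0.8% per 1000 cells) were left out as an alternative.

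Named genes are the 11 rule genes, the genes of the lists, the 25 genes with the largest ratio of CPM (5 CPM added) among those of at least 100 CPM in the endothelial cells of each sample, and genes called by genotype, of which there were 0. The 29 lower genes are given by examples that were chosen after their values were seen. Alternatives covered the number of rule genes, the muscle limit, depth, mitochondrial limit, doublets, MuSC RNA, denominators, thinning, normalization, count filter, the replicate block and leaving out each sample.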

Additional observations from a re-analysis of the deposited data

How the results depend on the processing

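The log2 ratio of the endothelial share between genotypes ran from -0.57 to 0.47 with each sample left out, and was 0.47 without control replicate 1; the other 12 alternatives gave -0.49 to -0.14, none with p under 0.667. The count of genes called by genotype, 0 in the reported fit, was 4 with DESeq2 (*Gm8797*, *Gm42418*, *Nppc* and *Lars2*), 43 of 13998 genes without the filter on low counts, 1 (*Gm8797*) with at least 2 or at least 4 rule genes, 2 without *Ly6c1* in the rule (*Gm8797* and *Msc*), 2 without the top doublet scores (*Gm8797* and *Gm42418*) and 12 of 1844 genes without cells with a *Pax7*, *Myf5* or *Myod1* UMI. It was 0 with median-ratio factors and, in an alternative chosen after seeing the data, 0 of 1579 genes without cells with 3 or more myogenic genes. With each sample left out it ran from 0 to 112. *Gm42418*, *Nppc*, *Lars2* and *Msc* were named after their values were seen. The interaction, 0 in the reported fit, called 47 genes without the filter on low counts, 5 without cells with a *Pax7*, *Myf5* or *Myod1* UMI, and 1 to 42 with each sample left out, 42 of them without control replicate 1. Carry-over of *Pax7*, *Myf5* or *Myod1* was 25.2% of members per sample in the reported setting, 40.6% with no thinning, 42.9% at 4000 UMIs, and 20.6% to 29.7% with each sample left out. The cause of these changes was not tested.

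Replicate numbers were shared by the genotypes, but nothing in the labels ties equal numbers together, and the deviations of equal numbers had r = -0.13 over 4709 genes. A replicate block called 4 genes (*Gm8797*, *Tpm3-rs7*, *Csf1* and *Gm42418*), and the crossed pairing, chosen after seeing the data, called 0. The immediate-early median stayed below 0 in all 15 alternatives (-0.78 to -0.18), as did that of the transcription factors (-0.57 to -0.19) and of the further endothelial genes (-0.55 to -0.08). The 20 cells of control replicate 2 and the 2 samples per genotype limit the precision of every comparison.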
